A study of Schizosaccharomyces pombe with 15 samples.

Results

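The 8 genes described here, ctt1, gpx1, hsp9, hsp16, hsp104, tps1, tpp1 and ntp1, were taken by name as core stress effectors and trehalose genes of Schizosaccharomyces pombe, from the 5113 protein-coding genes annotated on chromosomes I, II and III. For each gene, peaks of the transcription factor Scr1 were collected if the summit, the position of highest signal in a peak, lay in the gene or within 2000 bp upstream of its annotated transcript start. Of the 8 genes, 5 had such a peak in both replicate lists of Wilmar-P in molasses, where 17.6% of all protein-coding genes did. All 8 had one in both lists of laboratory S. pombe in molasses, where 69.3% of all genes did. In both lists of Wilmar-P in glucose it was 3, where 4.93% of all genes had one.

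Scr1 was measured by chromatin immunoprecipitation followed by sequencing (ChIP-seq) in 6 of the 15 samples of the series, as 3 groups of 2 lists, and the study describes the replicates as biological. The groups were the industrial strain Wilmar-P in molasses (h90), laboratory S. pombe in molasses (labelled 972h-, although its genotype is given as h+, with the alleles ade6-m216, leu1-32 and ura4-d18) and Wilmar-P in glucose (h90). Wilmar-P is a production strain that was derived by passaging a wild isolate through molasses, a sucrose-rich by-product of sugar cane processing. The comparisons address whether the strain and the medium change where Scr1 sits near these genes. All cells carried scr1::TAP-KanMX6, which puts a TAP tag on Scr1, were grown first in yeast extract medium (YES) with 3% glucose and then spent 4 h in molasses medium or in fresh YES with 3% glucose. The washed cells were divided between these media, so that a molasses and a glucose list of Wilmar-P can come from a shared starting culture, although the labels do not say whether equal replicate numbers mark one. The strains differed in mating type and in the ura4, leu1 and ade6 alleles as well as in origin, so that the contributions of these differences cannot be told apart. Laboratory S. pombe in glucose was not analysed here.

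Scr1 is a zinc finger repressor of the Mig1 family that acts in carbon catabolite repression, the shut-down of genes for other carbon sources while glucose is plentiful. The core environmental stress response is the set of genes that fission yeast induces under many kinds of stress, largely through the mitogen-activated protein kinase Sty1 and the transcription factor Atf1 with its partner Pcr1. Its effectors include enzymes that remove peroxides, chaperones that keep proteins folded, and the enzymes of trehalose, a disaccharide that protects proteins and membranes and serves as a carbon store.

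There were 961 and 1073 peaks for Wilmar-P in molasses, 4239 and 4479 for laboratory S. pombe and 386 and 228 for Wilmar-P in glucose. Of the summits, 25.9% and 34.9% were in coding exons for Wilmar-P in molasses, 91.1% and 91.9% for laboratory S. pombe and 35.5% and 8.77% for Wilmar-P in glucose. Peaks with a summit outside coding sequence are therefore given separately throughout. The level of a peak is its fold enrichment over the background, as deposited, and ranks count from the smallest p-value of a list. The files hold no read counts, so the depth behind each value is unknown, and a gene without a peak is a gene with no peak past a q-value of about 0.01. An exact permutation test (two-sided) has a floor of p = 0.333 for 2 lists against 2, so the groups were compared by whether their values overlap, and no test that assumes a distribution was run.

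Sequences from the summits are shown to give the bases at the places of the peaks. Each was read from the reference genome (ASM294v3) around the summit of Wilmar-P molasses replicate 1 and is written 5′ to 3′ on the strand of the gene. Wilmar-P carries its own variants, which are not shown. Groups with summits at the same place share its reference bases, so words in common there are not a separate result. Capitals mark matches, on either strand, to the words searched. The Mig1-type consensus stood for the word CCGGGG, the word CTGGGG, the word GCGGGG or the word GTGGGG. Its wider form added the word CCGGAG, the word CTGGAG, the word GCGGAG and the word GTGGAG. The others were TGACGT, the core of the Atf1-Pcr1 element, then AGGGG, the stress response element of budding yeast, then GAANNTTC or its counterpart TTCNNGAA, parts of the heat shock element, and finally the CCAAT box. AGGGG can overlap a Mig1-type word. The windows are intergenic, except that the distal hsp16 site lies in the coding exon of a neighbouring gene and that the tps1 window, cut to 29 bp, lies in an annotated UTR.
ctt1, chrIII:58925-59045, minus strand: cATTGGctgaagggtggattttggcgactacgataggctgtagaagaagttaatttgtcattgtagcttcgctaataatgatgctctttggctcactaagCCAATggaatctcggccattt
hsp9, chrI:5320718-5320838, minus strand: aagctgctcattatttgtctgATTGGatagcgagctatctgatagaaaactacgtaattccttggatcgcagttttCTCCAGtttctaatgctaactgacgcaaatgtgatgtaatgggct
hsp16 proximal site, chrII:2661158-2661278, minus strand: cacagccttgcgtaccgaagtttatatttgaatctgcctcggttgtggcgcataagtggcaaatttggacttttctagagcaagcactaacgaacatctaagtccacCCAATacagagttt
hsp16 distal site, chrII:2661833-2661953, minus strand: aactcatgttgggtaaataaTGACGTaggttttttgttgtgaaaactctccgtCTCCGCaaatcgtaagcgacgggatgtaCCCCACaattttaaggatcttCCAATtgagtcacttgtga
ntp1, chrII:206429-206549, plus strand: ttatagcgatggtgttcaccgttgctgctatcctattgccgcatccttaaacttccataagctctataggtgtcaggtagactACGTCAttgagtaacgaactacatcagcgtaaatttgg
tps1, chrI:3478368-3478396, plus strand: agtttcctttttgctttcgtcataatatc

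The catalase gene ctt1 (SPCC757.07C, chromosome III, 56654 to 58833, minus strand), whose product breaks down hydrogen peroxide, had a promoter peak in both strains in molasses. In Wilmar-P in molasses its summits lay 152 and 153 bp upstream of the gene, in intergenic sequence, with enrichments of 8.26 and 7.00 (mean 7.63 ± 0.891, SD, n = 2) and ranks of 245 and 227. In the laboratory lists the summits lay 210 and 163 bp upstream, with enrichments of 1.59 and 1.34 (mean 1.46 ± 0.178, SD, n = 2) and ranks of 2328 and 4403 of 4239 and 4479. Both Wilmar-P values were above both laboratory values, and the ratio of means was 5.22-fold (2.38 ± 0.24 on the log2 scale, SD from the replicates of both groups). The laboratory summits were thus at the same promoter, but 54.9% and 98.3% of the way down their lists, and their irreproducible discovery rate (IDR), a measure of how far the ranks of a peak agree between replicates, was 0.478, above the level of 0.05. With a q-value of at most 1e-05 the laboratory promoter peak was lost and 3 of the 8 genes had one in both laboratory lists. The share of all genes at this cut was not counted. The strongest laboratory peaks at the gene lay elsewhere, in its own coding exon 1297 and 1274 bp into the gene, with enrichments of 2.11 and 2.15. No Wilmar-P glucose peak was found in the window. The nearest glucose summits were 37209 and 112179 bp away.

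The glutathione peroxidase gene gpx1 (SPBC32F12.03C, chromosome II, 2788863 to 2789587, minus strand), which encodes a second peroxide-removing enzyme, had no peak in Wilmar-P in either medium. The nearest Wilmar-P molasses summits were 9297 and 9287 bp from its start. The laboratory lists held peaks in its coding exon, 335 and 303 bp into the gene, with enrichments of 1.55 and 1.74 and ranks of 3681 and 3027. These summits also lay 782 and 814 bp from the start of gem7, and their IDR was 0.333. The peroxide enzymes thus differed in Wilmar-P in molasses, with a promoter peak at ctt1 and no peak at gpx1. In laboratory S. pombe both genes had coding peaks. There the enrichments of the ctt1 promoter peak (1.59 and 1.34) overlapped those of the gpx1 coding peaks (1.55 and 1.74).

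**Figure D1:**
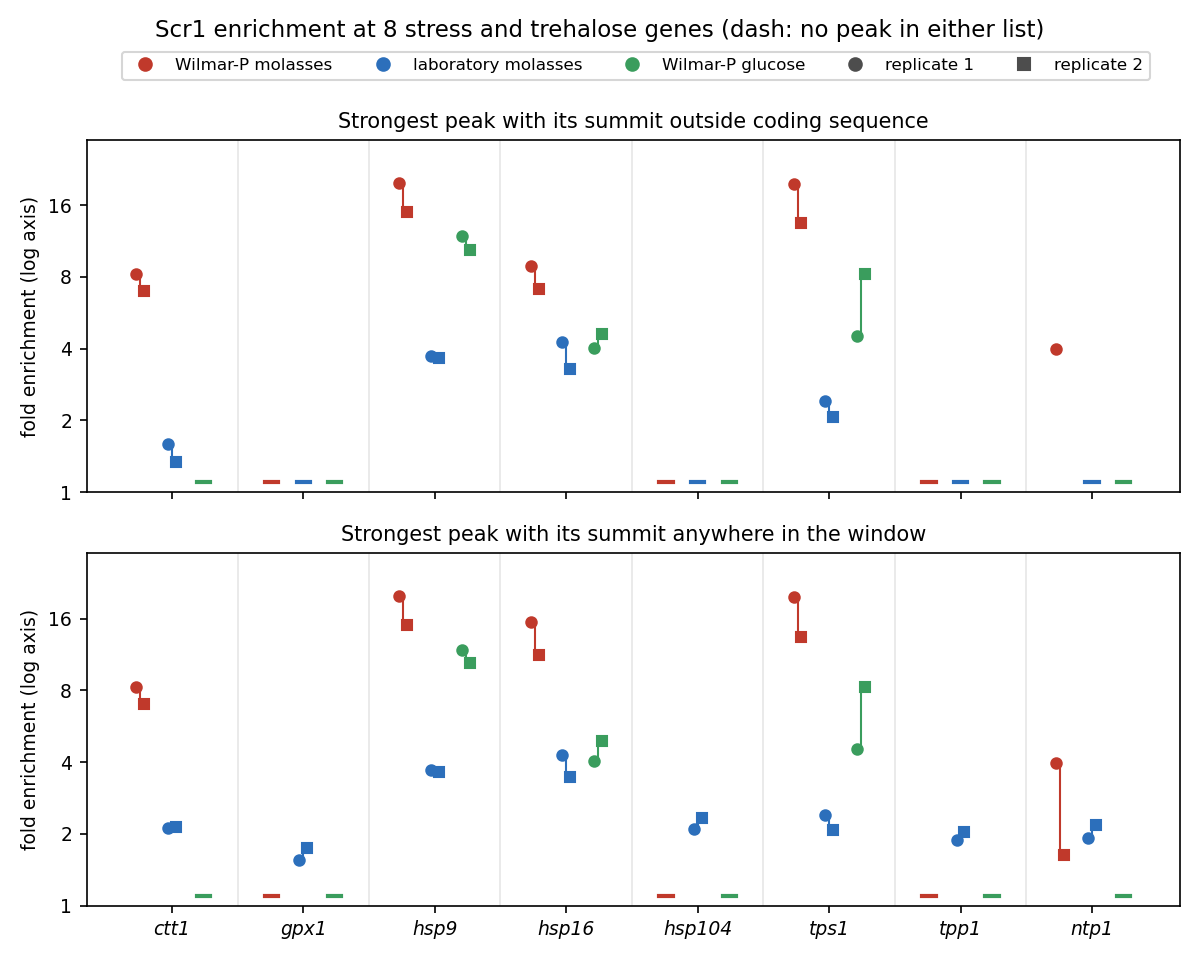
Fold enrichment (log axis) of the strongest Scr1 peak in the window of each gene, for peaks with a summit outside coding sequence (top) and for any summit (bottom). Circles are replicate 1, squares replicate 2, a line joins the replicates of a group and a dash near 1 marks a group with no peak in either list; at ctt1, hsp9, hsp16 and tps1 both Wilmar-P molasses values (red) lie above both laboratory values (blue).

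The gene hsp9 (SPAP8A3.04C, chromosome I, 5319957 to 5320676, minus strand), which encodes a small stress protein related to Hsp12 of budding yeast, had a promoter peak in all 6 lists. The summits lay 102 and 105 bp upstream in Wilmar-P in molasses, 89 and 90 bp in laboratory S. pombe in molasses and 108 and 100 bp in Wilmar-P in glucose. All 6 summits fell within 19 bp, so that neither strain nor medium moved the place of the peak by more than this. Its enrichment was 19.8 and 15.0 in Wilmar-P in molasses (mean 17.4 ± 3.40, SD, n = 2), against 3.72 and 3.65 in the laboratory strain (mean 3.68 ± 0.0466). Both Wilmar-P values were above both laboratory values, by 4.73-fold (2.24 ± 0.28 on the log2 scale). In Wilmar-P in glucose the enrichment was 11.9 and 10.4 (mean 11.1 ± 1.05, SD, n = 2), below both molasses values, and the molasses mean was 1.57-fold higher (0.65 ± 0.31 on the log2 scale). The peak ranked 100 and 111 for Wilmar-P in molasses, 127 and 121 for laboratory S. pombe and 35 and 29 for Wilmar-P in glucose, the best rank of any of the 8 genes in each of the glucose lists. Its IDR was at most 0.000936 in every group.

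The gene hsp16 (SPBC3E7.02C, chromosome II, 2660139 to 2660992, minus strand), which encodes a small heat shock protein that holds unfolded proteins in solution, had peaks at 2 places in all 6 lists. The proximal summits were intergenic, 226 and 224 bp upstream in Wilmar-P in molasses, 223 and 224 bp in the laboratory strain and 245 and 243 bp in Wilmar-P in glucose. Proximal enrichment was 8.85 and 7.11 in Wilmar-P in molasses (mean 7.98 ± 1.23, SD, n = 2), against 4.28 and 3.30 in the laboratory strain (mean 3.79 ± 0.694), a ratio of 2.11-fold (1.08 ± 0.35 on the log2 scale). In Wilmar-P in glucose it was 4.04 and 4.63 (mean 4.33 ± 0.419), below both molasses values, which were 1.84-fold higher on average (0.88 ± 0.26 on the log2 scale).

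The distal hsp16 summits lay 901 and 893 bp upstream in Wilmar-P in molasses, 894 and 893 bp in the laboratory strain and 923 and 909 bp in Wilmar-P in glucose, inside the coding exon of the divergent gene SPBC3E7.17. They were 97 and 89 bp from the start of that gene in Wilmar-P in molasses, so its start was nearer to them than that of hsp16. Distal enrichment was 15.5 and 11.3 in Wilmar-P in molasses, against 4.24 and 3.48 in the laboratory strain. In Wilmar-P in glucose it was 3.89 and 4.91. In Wilmar-P in molasses both distal values were above both proximal values, whereas in the laboratory strain and in glucose the values at both places overlapped. In glucose neither place passed the IDR level of 0.05, with 0.141 for the proximal and 0.0637 for the distal site, and the ranks were low, 204 and 179 for the proximal site in lists of 386 and 228 peaks.

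The gene hsp104 (SPBC16D10.08C, chromosome II, 3612265 to 3615269, minus strand), which encodes a disaggregase that pulls proteins out of aggregates, had no peak in Wilmar-P, where the nearest molasses summits were 7644 and 7642 bp upstream. The laboratory peaks covered much of its coding exon. They were 2128 and 2025 bp long, with summits 1465 and 2169 bp into the gene and enrichments of 2.097 and 2.322. Unlike the promoter peaks at hsp9 and hsp16, their summits lay far apart in the replicates, and their IDR was 0.00852.

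The trehalose phosphate synthase gene tps1 (SPAC328.03, chromosome I, 3479149 to 3481305, plus strand), which carries out the first step of trehalose synthesis, had an upstream peak in all 6 lists. The summits lay 767 and 791 bp upstream in Wilmar-P in molasses, 754 and 806 bp in the laboratory strain and 773 and 770 bp in Wilmar-P in glucose. They fell in the annotated UTR of the neighbouring gene dbl4, although the start of tps1 was the nearest gene start. Enrichment was 19.7 and 13.4 in Wilmar-P in molasses (mean 16.5 ± 4.46, SD, n = 2), against 2.41 and 2.07 in the laboratory strain (mean 2.24 ± 0.239). The ratio of 7.38-fold (2.88 ± 0.42 on the log2 scale) was the largest strain ratio among the 8 genes, and both Wilmar-P values were above both laboratory values. In Wilmar-P in glucose the enrichment was 4.53 and 8.24 (mean 6.38 ± 2.62, SD, n = 2), below both molasses values, and molasses was 2.59-fold higher on average (1.38 ± 0.73 on the log2 scale). The size of this ratio depended on the replicate, with 2.12 on the log2 scale within replicate 1 and 0.70 within replicate 2. The laboratory lists also held a peak in the coding exon of tps1, 804 and 845 bp into the gene, with enrichments of 2.24 and 2.03, close to those of the upstream peak.

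The trehalose-6-phosphate phosphatase gene tpp1 (SPAC19G12.15C, chromosome I, 4074998 to 4077857, minus strand), which carries out the second step, had no peak in Wilmar-P. The nearest Wilmar-P molasses summits were 3395 and 3408 bp upstream. In each laboratory list 3 summits fell in the window, all in coding exons, of which 2 were in tpp1 itself and 1 was in the upstream gene adg2, 1694 and 1744 bp before tpp1. Their enrichments ranged from 1.65 to 2.03. The synthase and the phosphatase therefore differed, with an upstream peak in every list at tps1 and no summit outside coding sequence in any list at tpp1.

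The neutral trehalase gene ntp1 (SPBC660.07, chromosome II, 206581 to 209641, plus strand), whose product breaks trehalose down, had a peak in both Wilmar-P molasses lists, but not at the same place. In replicate 1 the summit was intergenic, 92 bp upstream, with an enrichment of 3.98 and a rank of 456. In replicate 2 the only summit in the window was 1595 bp upstream, in the coding exon of wwm2, with an enrichment of 1.63 and a rank of 990. Of the 456 peaks of replicate 1 at or above that rank, the ntp1 promoter peak was the only 1 without a base shared with a peak of replicate 2, so that the promoter of ntp1 rests on a single list. The laboratory lists held peaks in the coding exon of ntp1, 1156 and 1302 bp into the gene with enrichments of 1.92 and 2.17, and in wwm2, 1663 and 1651 bp upstream with 1.84 and 1.85. The strongest values of the strains overlapped, and no glucose peak was found.

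**Figure D2:**
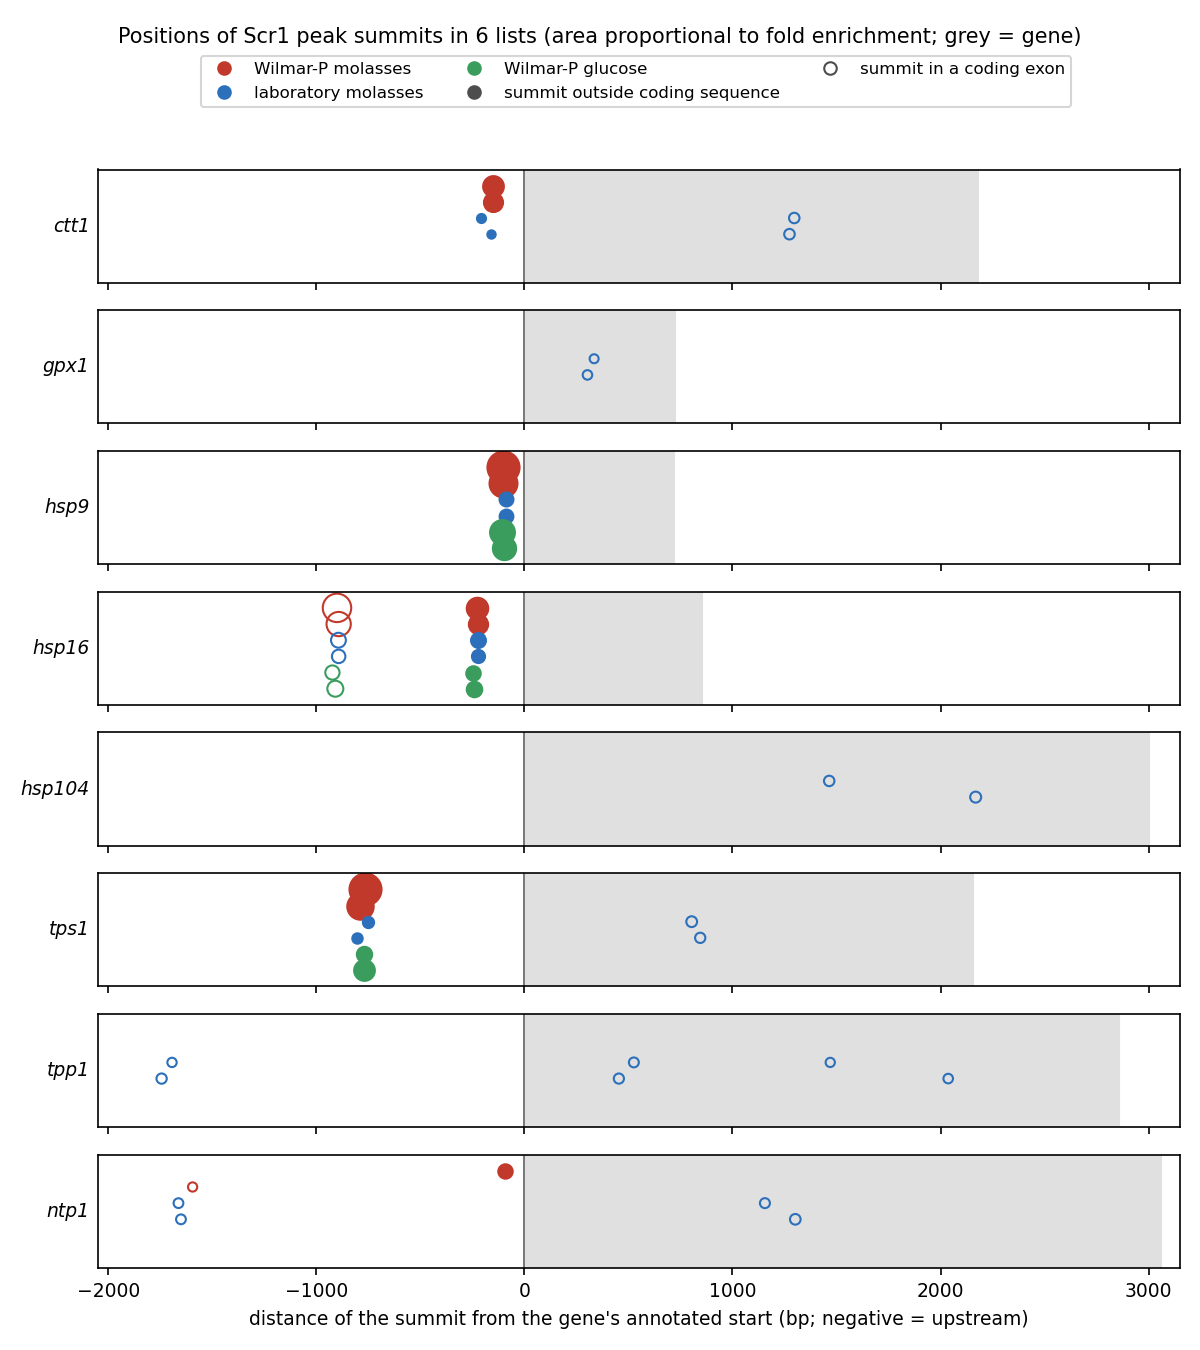
Distance of each peak summit from the annotated start of the gene, in bp, for the 6 lists, with replicates 1 and 2 of Wilmar-P molasses (red) above those of laboratory molasses (blue) and of Wilmar-P glucose (green). The area of a circle is proportional to the fold enrichment, filled circles are summits outside coding sequence, open circles are summits in coding exons, and grey marks the gene; summits upstream of hsp9, hsp16 and tps1 line up in all 6 lists, and gpx1, hsp104 and tpp1 hold open blue circles only.

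Counted over the 8 genes, 5 (ctt1, hsp9, hsp16, tps1 and ntp1) had a peak in both Wilmar-P molasses lists, where 17.6% of all protein-coding genes did. All 8 had one in both laboratory lists, where 69.3% of all genes did. In Wilmar-P in glucose it was 3 (hsp9, hsp16 and tps1), where 4.93% of all genes had one. With summits outside coding sequence, the 4 genes ctt1, hsp9, hsp16 and tps1 had a peak in both Wilmar-P molasses lists (13.1% of all genes) and the same 4 had one in both laboratory lists (5.4% of all genes). In glucose 3 of these 4, all but ctt1, had one (4.6% of all genes). Within their own coding exons, 0 of the 8 genes had a summit in both Wilmar-P molasses lists (3.58% of all genes) and 0 in both glucose lists (0.254% of all genes), but 6 did in both laboratory lists (48.4% of all genes). These 6 were ctt1, gpx1, hsp104, tps1, tpp1 and ntp1. For gpx1, hsp104, tpp1 and ntp1 the laboratory peaks lay only in coding exons, a class of peak that was common over all genes of those lists.

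The laboratory count fell most under stricter cuts. With a fold enrichment of at least 2.5 it was 2 of 8, hsp9 and hsp16, and with an IDR of at most 0.05 it was 5 of 8. The median enrichment of all peaks was 1.77 and 1.80 in the laboratory lists, so the cut at 2.5 removes most of all their peaks. In lists cut to the 228 peaks of the shortest list the count was 3 in Wilmar-P in molasses, 2 in the laboratory strain and 3 in Wilmar-P in glucose. The shares of all genes under these cuts were not counted, so these counts have no background beside them.

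**Figure D3:**
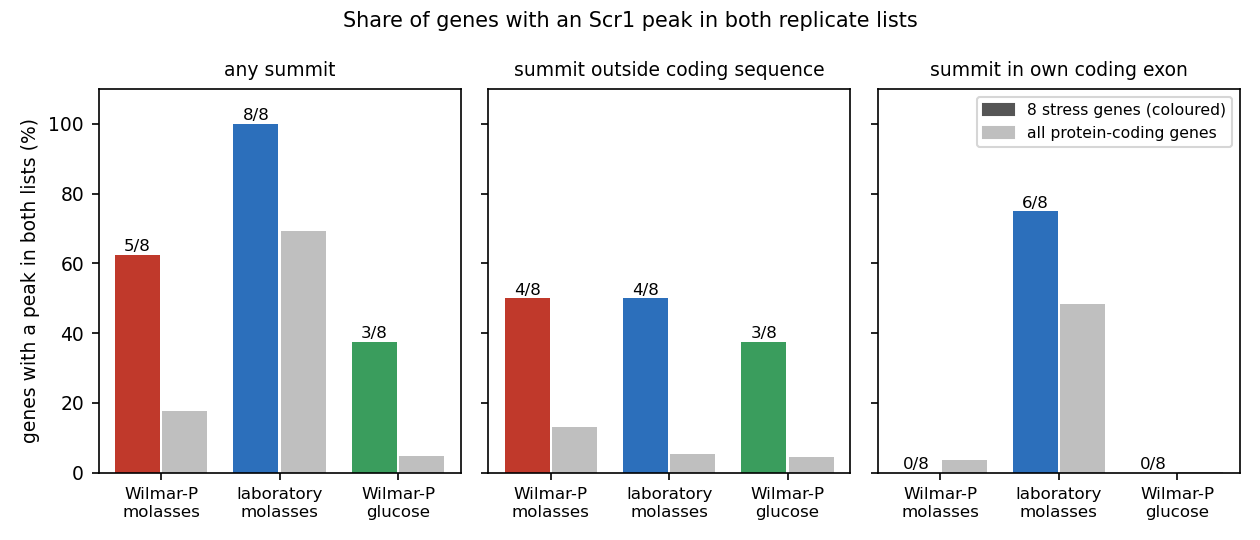
Share of genes, in percent, with an Scr1 peak in both replicate lists of a group, for any summit, for summits outside coding sequence and for summits in the gene's own coding exon. Coloured bars are the 8 stress and trehalose genes, with their count above, and grey bars are all 5113 protein-coding genes; in the laboratory strain 6 of 8 genes and 48.4% of all genes have a summit in their own coding exon.

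The higher enrichment in Wilmar-P was not limited to these genes. Of the 234 genes with a peak outside coding sequence in all 4 molasses lists, 95.7% had both Wilmar-P values above both laboratory values, and so did 4 of 4 of the stress genes. The median ratio of Wilmar-P over laboratory was 2.31 on the log2 scale for the 4 genes and 2.05 for all 234. Relative to that median, tps1 was 0.84 higher (a percentile of 96.2 among the 234 genes), ctt1 0.34 higher, hsp9 0.19 higher and hsp16 0.97 lower (a percentile of 10.3). With any summit the medians were 1.84 for 5 of the stress genes and 1.17 for 763 genes, of which 83% had both Wilmar-P values above both laboratory values, as did 4 of the 5 (all but ntp1). The peaks compared with any summit need not lie at the same place. The 1.84 is the ratio of ctt1, whose strongest peaks were upstream in Wilmar-P and in its coding exon in laboratory S. pombe. At hsp16 and ntp1 the strongest peaks of the lists also lay at different places. The median enrichment of all peaks outside coding sequence was 4.66 and 3.87 in the lists of Wilmar-P in molasses and 2.33 and 2.35 in those of the laboratory strain. These medians cover unlike sets of peaks, and the part of a shift of whole lists in the ratios at single genes was not tested.

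In Wilmar-P, enrichment at shared genes was also mostly higher in molasses than in glucose. Of the 230 genes with a peak outside coding sequence in all 4 Wilmar-P lists, 95.2% had both molasses values above both glucose values, as did 3 of 3 stress genes. The median log2 ratio of molasses over glucose was 0.88 for hsp9, hsp16 and tps1 and 1.56 for all 230 genes, and each of the 3 genes was below that median, by 0.91 for hsp9, 0.68 for hsp16 and 0.18 for tps1. The gap at tps1 is smaller than the SD of its ratio (0.73), and within replicate 1 its ratio of 2.12 is above 1.56. The median enrichment of all peaks outside coding sequence was 4.66 and 3.87 in molasses and 4.64 and 5.54 in the shorter glucose lists. These medians cover unlike sets of peaks, 712 and 698 in molasses against 249 and 208 in glucose. A shift of whole lists between the media was not tested. Averaging the log2 ratios within each replicate number (replicate block) gave a median of 0.88 for the 3 genes, with 0.64 for hsp9, 0.88 for hsp16 and 1.41 for tps1. With any summit the median was 1.38 for these 3 and 1.58 for 249 genes, of which 94% had both molasses values above both glucose values. With any summit, hsp16 reached 3.00-fold (1.59 on the log2 scale). Its strongest peak was distal, nearer to the start of SPBC3E7.17, in both molasses lists and in glucose replicate 2. In glucose replicate 1 it was proximal. The strain and medium ratios share the Wilmar-P molasses lists.

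**Figure D4:**
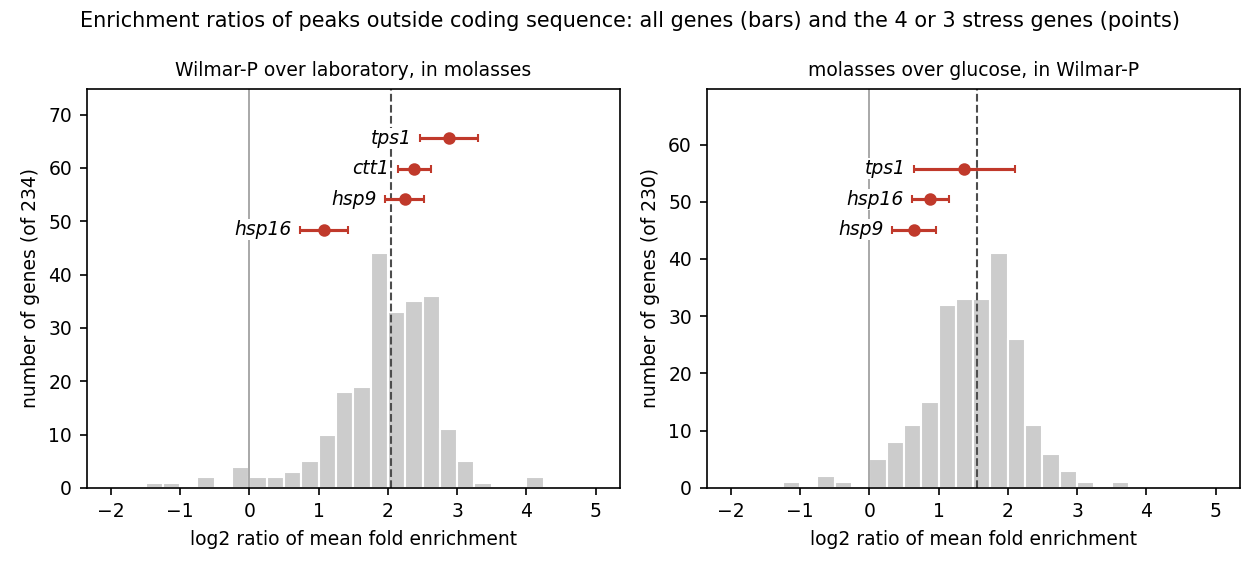
Log2 ratio of mean fold enrichment at peaks outside coding sequence, Wilmar-P over laboratory in molasses (left, 234 genes) and molasses over glucose in Wilmar-P (right, 230 genes). Grey bars count all genes with a peak in all 4 lists compared, the dashed line is their median (2.05 and 1.56), and red points are the stress genes with the SD from the replicates; tps1 lies above and hsp16 below the median of the strain ratios, and all 3 genes lie below the median of the medium ratios, tps1 by less than its SD.

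The words at the summits were the next thing the genes could share. Within 100 bp of the 23 summits outside coding sequence at ctt1, hsp9, hsp16, tps1 and ntp1, the Mig1-type consensus had 0 matches. Of all summits outside coding sequence, 17.8% and 18.1% had a match for Wilmar-P in molasses, 18.8% and 17.9% for laboratory S. pombe and 29.7% and 29.8% for Wilmar-P in glucose, as did 7.08% of the promoters of all genes (from 250 bp before to 50 bp after the start). Summits of different lists at the same gene share their sequence, so the 23 summits stand for 5 places. With the wider form, 9 of the 23 summits had a match, all 6 at hsp9 and 3 at hsp16. At hsp9 this was the word CTCCAG, which reads CTGGAG on the other strand, between 6 and 25 bp downstream of the summits and printed in capitals in the sequence above. Over all summits outside coding sequence the share with the wider form was 33.4% and 33.5% for Wilmar-P in molasses, 39.0% and 37.9% for laboratory S. pombe and 48.2% and 50% for Wilmar-P in glucose, and over all promoters it was 18.9%.

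The distal hsp16 site did hold a Mig1-type word, CCCCAC, which reads GTGGGG on the other strand and begins 880 bp upstream of hsp16. It lay 24 and 16 bp from the Wilmar-P molasses summits, 17 and 16 bp from the laboratory summits and 46 and 32 bp from the glucose summits. The same window held TGACGT, 941 bp upstream of hsp16, and CCAAT. Like the summits, these words lie in the coding exon of SPBC3E7.17.

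The Atf1-Pcr1 word TGACGT was found within 100 bp of 3 of the 23 summits, at ctt1 and ntp1. At ctt1 it began 59 bp upstream of the gene, 96 and 97 bp from the Wilmar-P molasses summits and outside the printed sequence. At ntp1 it lay 26 bp from the replicate 1 summit. Of all summits outside coding sequence for Wilmar-P in molasses, 13.9% and 13.6% had this word, as did 13.5% and 14.3% for laboratory S. pombe, 18.9% and 23.6% for Wilmar-P in glucose and 5.91% of all promoters. AGGGG was found at all 6 summits of hsp9 and at no other gene of the set, beginning 176 bp upstream of the gene. It was present at 17.6% and 17.2% of all summits outside coding sequence for Wilmar-P in molasses, 22.3% and 22.5% for laboratory S. pombe and 24.9% and 26.4% for Wilmar-P in glucose, and in 10.4% of all promoters. CCAAT was found near 16 of the 23 summits, at ctt1, hsp9 and hsp16. Of all summits outside coding sequence it was near 35.4% and 36.8% for Wilmar-P in molasses, 45.4% and 43.7% for laboratory S. pombe and 52.6% and 52.4% for Wilmar-P in glucose, and it was in 42.2% of all promoters. The heat shock element parts had 0 matches at the 23 summits, including those of hsp9 and hsp16. Over all summits outside coding sequence they were found at 10.1% and 10.5% for Wilmar-P in molasses, 8.49% and 9.62% for laboratory S. pombe and 8.03% and 8.17% for Wilmar-P in glucose, against 19.9% of all promoters. Among the 8 genes, hsp16 alone held such a part in the promoter window used for that share, although not within 100 bp of its summits. None of the words was found within 100 bp of the tps1 summits, although the tps1 peak was among the strongest of the 8 genes.

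Further stress genes were counted from a list of 31 by role. In Wilmar-P in molasses 12 of the 31 had a peak outside coding sequence in both lists (13.1% of all genes), against 6 in laboratory S. pombe (5.4% of all genes), and 6 did in Wilmar-P in glucose (4.6% of all genes). With any summit the counts were 15 for Wilmar-P in molasses (17.6% of all genes), 20 for laboratory S. pombe (69.3% of all genes) and 6 for Wilmar-P in glucose (4.93% of all genes), so that the laboratory count was near the share over all genes. By role, 4 of 14 redox genes, 5 of 11 chaperone genes, 1 of 2 trehalose genes and 2 of 4 osmotic and ion stress genes had a peak outside coding sequence in both Wilmar-P molasses lists. In the laboratory lists these counts were 1, 2, 1 and 2. The genes with the highest mean enrichment in Wilmar-P in molasses were the cation-transporting ATPase gene cta3, the predicted trehalose phosphate synthase gene tps3, the peroxiredoxin gene tpx1, the glycerol-3-phosphate dehydrogenase gene gpd1 and the Hsp70 gene ssa2.

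The values of cta3 were 35.7 and 27.8 for Wilmar-P in molasses, 4.51 and 4.12 for the laboratory strain and 8.74 and 11.5 in Wilmar-P in glucose, with summits 177 to 210 bp upstream. At tps3 they were 32.4 and 22.5 for Wilmar-P in molasses, 4.09 and 3.76 for the laboratory strain and 5.45 and 7.32 for Wilmar-P in glucose, with summits between 1671 and 1712 bp upstream. SPACUNK4.17 and mug153 had the same strain and medium ratios as tps3, so these peaks are not particular to tps3. Ratios were also the same for hsp9 and ski7, for hsp16, fab1 and SPBC3E7.17, and for tps1 and dbl4. So were those for tpx1 and bxi1, and for ssa2 and ppe1, so those peaks are likewise not particular to a single gene. At tpx1 the Wilmar-P molasses values were 28.6 and 22.2, the laboratory values 5.74 and 4.89 and the Wilmar-P glucose values 7.96 and 6.10. The genes cta3, tps3 and tpx1 had both Wilmar-P molasses values above every other value, as did hsp9, hsp16 and tps1. This was common over all genes with a peak outside coding sequence in the lists compared. Of these, 95.7% had both Wilmar-P molasses values above both laboratory values, and 95.2% had both above both glucose values. For gpd1 enrichment was 19.5 and 13.9 in molasses in Wilmar-P, 5.11 and 4.24 in the laboratory strain and 4.99 and 8.07 in glucose in Wilmar-P. At ssa2 it was 14.3 and 8.59 for Wilmar-P in molasses and 3.30 and 3.18 for Wilmar-P in glucose, and the laboratory lists held a peak outside coding sequence only at the far edge of the window, 2000 and 1999 bp upstream. Of the 8 genes described above, hsp9 and tps1 had the highest mean enrichment in Wilmar-P in molasses. Both were below cta3, tps3 and tpx1 and above ssa2 in each Wilmar-P molasses list, and hsp9 was also above gpd1 in each. Of the trehalose genes in the set and the list together, tps1 and tps3 had an upstream peak in all 6 lists, tpp1 and tps2 had none outside coding sequence in any, and ntp1 had one in 1 list.

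The genes most like each member over the 6 lists were those with the smallest distance of log2 enrichment, taking a gene without a peak as 0. They were mfs3 and sre2 for ctt1, at distances of 0.127 and 0.177. For tps1 they were duc1 and pyp2, at 0.538 and 0.598, and for hsp16 spb70 and knh3, at 0.551 each because those neighbours share the same peaks. The closest genes to hsp9, rsv1 and tna1, were at 0.809 and 0.887. The glucose values of rsv1 were 8.65 and 7.75, against 11.9 and 10.4 for hsp9. For ntp1, bcs1 and gdh2 were closest, at 0.278 and 0.432.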

How the data were processed

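The members and gene lists were chosen with earlier results of these data known. Reads were processed by the authors. Their notes name CASAVA 1.8.4, cutadapt 1.9.1, Bowtie2 2.3.1 and MACS2 2.1.1 with the build ASM294v2, and peaks were called for each replicate on its own. The deposited lists give the fold enrichment of each peak as a ratio and its significance as −log10 p-value and −log10 q-value, as the authors' peak caller wrote them. The smallest −log10 q was between 2.00 and 2.43, which sets the end of each list.

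Gene positions and sequences came from RefSeq ASM294v3. Chromosome I measures 5579133 bp in it, II measures 4539804 bp and III measures 2452883 bp, and every peak used fits inside them (the farthest on III stops at its final base). Peaks on other sequences were left out. Positions are counted from 1, and the start of a gene is its annotated transcript start.

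All computation was in Python 3.11.15 with numpy 2.4.6. The strongest peak by enrichment represented a gene in a list, and a ratio compared the means of 2 lists. Shares of all 5113 protein-coding genes were counted in the same way, but not under the alternative cuts. The IDR was fitted for each group with a copula mixture model written for this purpose, which was tested on simulated data as the window assignment was. All 8 genes are named, and of the 31 further genes (hsp60 is annotated as mcp60) the 5 with the highest mean enrichment. For each gene with a peak in both Wilmar-P molasses lists, the 2 most similar genes were named, leaving out starts within 4000 bp. Neighbours were named within 1000 bp of a summit. The RNA polymerase II and input samples, 9 in all, were not analysed here.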

Additional observations from a re-analysis of the deposited data

How the results depend on the processing

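The fold enrichments depend on library depth and background, which the lists do not give, and with 2 lists against 2 no test across replicates was run. With the replicate block, the mean of the log2 ratios within replicate numbers, the median of molasses over glucose was 1.41 for any summit and 0.88 outside coding sequence, against 1.38 and 0.88 without it. The labels do not say that equal numbers mark the same culture. The block and the alternatives for single genes were chosen after seeing the data.

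The count of the 8 genes with a peak in both lists was 3 for Wilmar-P in molasses in lists of equal length, against 5. For the laboratory strain it was 2 with an enrichment of at least 2.5, 2 in lists of equal length and 5 at an IDR of at most 0.05, against 8. Outside coding sequence, lists of equal length gave 2 for Wilmar-P in molasses and 2 for the laboratory strain, against 4 each, and an enrichment of at least 2.5 gave 2 for the laboratory strain. These alternatives keep fewer peaks by construction, and the shares of all genes under them were not counted. The median log2 ratio of Wilmar-P over laboratory was 2.04 with 1000 bp upstream and 2.04 with a q-value of at most 1e-05, both of which drop ntp1, and 2.31 outside coding sequence, against 1.84. Leaving out a replicate gave 1.71 to 1.97 for it, and 0.70 to 1.95 for the median of molasses over glucose, against 1.38. At tps1 the ratio of molasses over glucose ranged from 0.70 to 2.12 without a replicate, and the replicates of the glucose group differed there more than at the other genes. The wider motif gave 9 of 23 summits, against 0. Of the alternative values for these results, 72 stayed within 1.5 times the count or within the spread between replicates, and the 11 given here did not. Some of the 72 could hardly do otherwise. The spread for a median ratio was taken from the values without a replicate, which were then judged by it. A narrower motif window lies inside the main window, which had 0 matches. No ratio reversed in direction, and for counts a reversal was not defined.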
